A study of Mus musculus with 3 samples.

Results

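Expression of 7 genes that mark stem-like and progenitor T cells was followed in donor T cells from mice given allogeneic bone marrow transplantation (BMT) and cyclosporine A (CSA), an inhibitor of calcineurin. The genes were *Tcf7*, *Lef1*, *Id3*, *Bach2*, *Myb*, *Slamf6* and *Satb1*. They were chosen by name, and all 7 were among the 18029 genes of the count table. Irradiated B6D2F1 recipients had received C57BL/6 (B6) bone marrow and B6 T cells, with a small number of TEa cells, which carry a transgenic T cell receptor against an alloantigen. Daily treatment from day 0 to day 6 was saline or CSA, at a dose of 5 or 50 mg/kg, and spleens were collected on day 7. Each group held 6 mice, and spleens of 2 mice were pooled and hashtagged, so that the replicate was the pool (n = 3 per group). Sorted CD4+ and CD8+ donor T cells of a group went into a single 10x Genomics 5' capture, so the capture and the treatment cannot be told apart. TEa cells were left out except where they are named.

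*Tcf7* (encoding TCF1) and *Lef1* encode related DNA-binding proteins of the TCF/LEF family, which keep T cells able to self-renew and which bind β-catenin and Groucho-type corepressors. *Id3* encodes an inhibitor that pairs with E proteins and keeps them from DNA, *Bach2* a repressor that restrains effector programs, *Myb* a transcription factor of progenitors and cycling cells, and *Satb1* an organizer of chromatin. *Slamf6* encodes Ly108, a self-binding receptor of the SLAM family that is used as a surface marker of TCF1+ progenitor-like cells.

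The 7 protein-coding genes lie on 6 chromosomes of the mouse assembly GRCm38 (mm10): *Slamf6* at chr1:171917458-171948958, *Lef1* at chr3:131110297-131224357, *Bach2* at chr4:32238413-32586109, *Id3* at chr4:136143822-136145392, *Myb* at chr10:21124930-21160984, *Tcf7* at chr11:52246527-52283383 and *Satb1* at chr17:51736187-51833290. Because CSA blocks the calcineurin-dependent activation of NFAT, the windows of 300 bases around the start sites of *Tcf7* and *Slamf6*, which fell at 50 mg/kg, and of *Lef1*, which rose relative to the other genes, are shown. They were taken from RefSeq on GRCm38.p6, and capitals mark the core of the NFAT motif (GGAAA or its reverse complement TTTCC) and of the TCF/LEF motif (CTTTG or CAAAG).
*Tcf7*, upstream RefSeq start, chr11:52282965-52283264, minus strand: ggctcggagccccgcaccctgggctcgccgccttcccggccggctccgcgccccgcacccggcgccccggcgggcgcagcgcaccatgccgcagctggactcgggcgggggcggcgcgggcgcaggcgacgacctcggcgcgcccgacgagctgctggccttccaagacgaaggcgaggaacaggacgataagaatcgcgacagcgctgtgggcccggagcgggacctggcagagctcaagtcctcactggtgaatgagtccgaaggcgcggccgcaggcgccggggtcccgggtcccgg
*Tcf7*, downstream RefSeq start, chr11:52282546-52282845, minus strand: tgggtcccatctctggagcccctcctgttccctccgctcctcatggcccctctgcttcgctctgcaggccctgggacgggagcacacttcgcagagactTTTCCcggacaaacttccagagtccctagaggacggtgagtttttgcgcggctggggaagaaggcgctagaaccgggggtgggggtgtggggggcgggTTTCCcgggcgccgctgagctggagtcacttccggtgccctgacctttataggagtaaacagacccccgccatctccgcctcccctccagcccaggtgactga
*Slamf6*, chr1:171917212-171917511, plus strand: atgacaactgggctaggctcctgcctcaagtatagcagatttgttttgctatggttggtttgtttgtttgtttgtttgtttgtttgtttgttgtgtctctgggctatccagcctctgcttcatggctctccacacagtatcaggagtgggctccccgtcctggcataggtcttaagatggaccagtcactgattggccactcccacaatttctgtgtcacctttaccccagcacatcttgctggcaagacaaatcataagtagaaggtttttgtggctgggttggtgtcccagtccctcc
*Lef1*, upstream RefSeq start, chr3:131110047-131110346, plus strand: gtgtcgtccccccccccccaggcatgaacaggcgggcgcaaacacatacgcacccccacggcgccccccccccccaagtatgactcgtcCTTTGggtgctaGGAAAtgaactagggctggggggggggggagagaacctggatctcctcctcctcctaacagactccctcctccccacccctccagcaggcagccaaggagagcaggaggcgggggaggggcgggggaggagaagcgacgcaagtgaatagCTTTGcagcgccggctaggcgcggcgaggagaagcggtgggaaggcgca

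The *Slamf6* window and the upstream *Tcf7* window held neither motif on either strand, and the downstream *Tcf7* window held 2 NFAT cores. The *Lef1* window held 1 NFAT core and 2 TCF cores, with no bases shared between them. With the most upstream window of each gene, 5 of the 7 genes held an NFAT core, against 61.3% of 32851 promoter windows of the same length, and 3 of the 7 held a TCF core, against 53.9%. These matches describe letters and were not tested as binding sites.

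The table held 10371 CD4+ and 10833 CD8+ cells. Median depth rose with dose, from 3097 to 5979.5 unique molecular identifiers (UMIs) per CD4+ cell and from 4108 to 7183 per CD8+ cell between saline and 50 mg/kg, and the sums per pool ranged from 3994968 to 11454636 UMIs. *Cd4* had 0 UMIs in cells labelled CD8+ and *Cd8a* had 0 in cells labelled CD4+. How the cells of a capture were given their lineage label was not checked, so these zeros are not a test of purity. Summed markers of B cells moved with dose, from 271-290 to 374-401 CPM (UMIs of a gene scaled to the same total in each sum) in CD4+ pools and from 230-242 to 565-702 CPM in CD8+ pools, although *Ms4a1* had at most 6 UMIs in all cells of a lineage. Erythroid markers rose from 3.21-14.5 to 27.7-36.6 CPM in CD4+ pools and from 3.89-17.6 to 23.8-48.1 CPM in CD8+ pools, and the part of either list in the results was not tested. Hashtags were mixed in some cells: in 1087 of 21204 cells (5.13%) the strongest hashtag was that of another pool. Apart from hashtags, 218 of 20986 barcodes occurred in more than 1 capture. The hashtag mismatches were uneven, with 388 of 2325 cells in the third pool at 5 mg/kg and 275 of 2366 in the third at 50 mg/kg. The first pools held 1 such cell under saline and 0 at each CSA dose.

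To ask how CSA dose moved the 7 genes, UMIs were summed per pool and lineage and tested across all genes with edgeR's quasi-likelihood test and Benjamini-Hochberg adjustment, with a gene called at an adjusted p under 0.05. At 50 mg/kg, *Tcf7* and *Slamf6* fell in both lineages, and *Lef1* and *Satb1* rose relative to the other genes, although *Satb1* fell in CD4+ cells as a share of all UMIs. In CD4+ cells 5 of the 7 genes were called, against 70.5% of all genes tested, and in CD8+ cells 6 of 7 against 74.0%, so the number called was near the background in both lineages. Groups of pools did not overlap for 5 of the 7 genes in CD4+ cells and for all 7 in CD8+ cells, against 72.7% and 75.8% of all genes. Levels are given as CPM normalized by the trimmed mean of M values (TMM). In such sums fewer cells that express a gene and less RNA per cell cannot be told apart, and p-values measure the spread between pools.

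**Figure D1:**
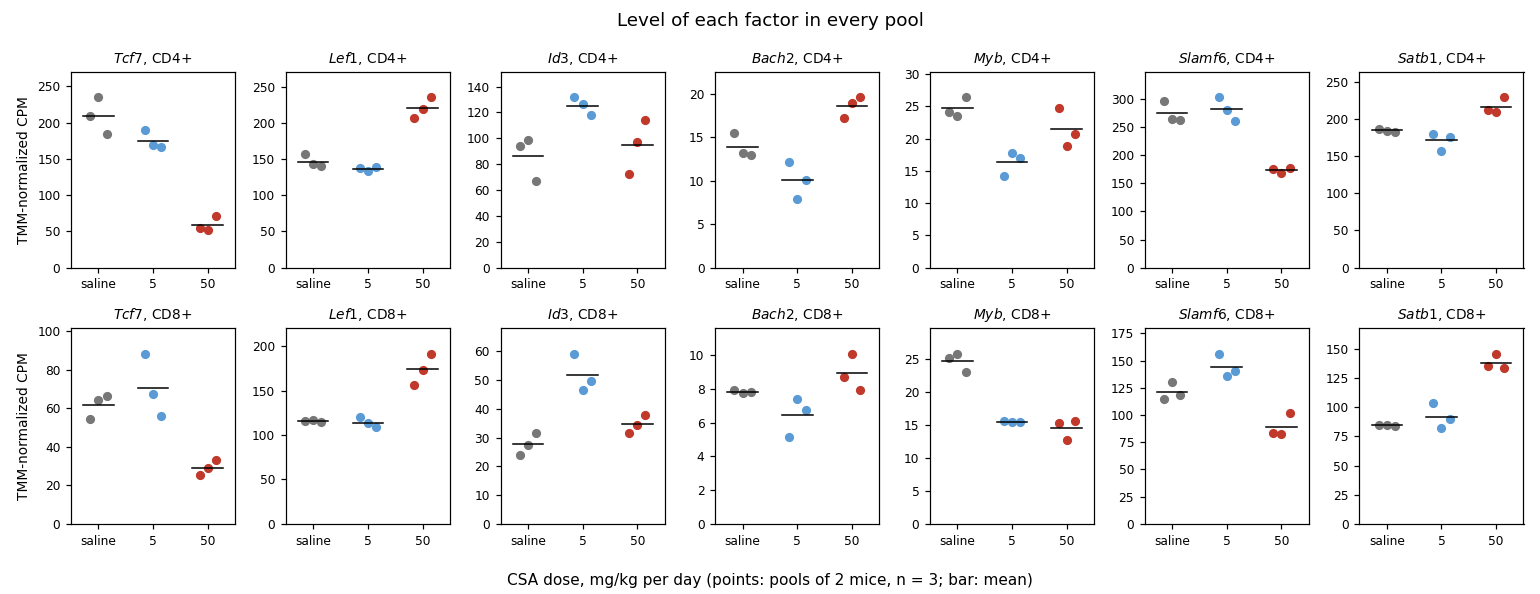
TMM-normalized CPM of each gene (vertical axes, starting at 0) by daily CSA dose (horizontal axes), for CD4+ cells in the upper row and CD8+ cells in the lower row. Points are pools of 2 mice (n = 3 per group) and bars are means. *Tcf7* and *Slamf6* were lowest at 50 mg/kg in both lineages, and *Lef1* was highest there on this scale.

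In CD4+ cells the saline pools held 210, 235 and 184 CPM of *Tcf7*, the pools at 5 mg/kg held 191, 169 and 166 CPM, and the pools at 50 mg/kg held 54.8, 51.9 and 71.1 CPM. Every pool at 50 mg/kg lay below every other pool, while the saline and 5 mg/kg groups overlapped. The log2 change at 50 mg/kg was -1.82 (SE 0.09, edgeR adjusted p = 3.42e-13), a 3.52-fold lower level. At 5 mg/kg *Tcf7* changed by -0.26 (SE 0.09, edgeR adjusted p = 0.0133), a call that was lost without saline pool 2 (log2 change -0.17), without the second pool at 5 mg/kg (-0.24) or without the third (-0.22). In CD8+ cells *Tcf7* stood at 54.4, 64.1 and 66.2 CPM in saline pools, at 88.3, 67.1 and 55.8 CPM at 5 mg/kg, and at 25.1, 28.9 and 33.3 CPM at 50 mg/kg. The highest dose was again below the rest without overlap (log2 change -1.07, SE 0.13, edgeR adjusted p = 6.9e-07). The CD8+ value of *Tcf7* at 5 mg/kg was 0.15 (SE 0.12, edgeR adjusted p = 0.304), and it passed the test without the third pool at 5 mg/kg (0.31), whereas as a share of all UMIs it was -0.28 and called lower.

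*Lef1*, the partner of *Tcf7* in the family, did not follow it. CD4+ saline pools held 156, 143 and 141 CPM of *Lef1*, pools at 5 mg/kg held 138, 134 and 139 CPM, and pools at 50 mg/kg held 206, 219 and 235 CPM. CD8+ pools held 116, 117 and 114 CPM under saline, 121, 113 and 109 CPM at 5 mg/kg, and 157, 174 and 192 CPM at 50 mg/kg. With TMM the high-dose pools were above all others in both lineages. The log2 change was 0.59 in CD4+ cells (SE 0.05, edgeR adjusted p = 2.45e-09) and 0.59 in CD8+ cells (SE 0.06, edgeR adjusted p = 8.42e-08). As a share of all UMIs the high-dose and saline pools overlapped in both lineages, and the CD8+ change was not called. *Lef1* at 5 mg/kg was not called with TMM, with values of -0.09 in CD4+ cells (SE 0.06, edgeR adjusted p = 0.176) and -0.03 in CD8+ cells (SE 0.07, edgeR adjusted p = 0.737).

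*Slamf6*, the surface receptor, was found at 296, 265 and 263 CPM in the CD4+ saline pools, at 303, 281 and 261 CPM at 5 mg/kg, and at 175, 168 and 177 CPM at 50 mg/kg. The saline and 5 mg/kg pools overlapped and the high-dose pools lay below both (log2 change against saline -0.66, SE 0.06, edgeR adjusted p = 7.94e-10). In CD8+ cells *Slamf6* was at 114, 130 and 119 CPM under saline, at 156, 136 and 140 CPM at 5 mg/kg and at 83.2, 82.7 and 102 CPM at 50 mg/kg. The 3 CD8+ groups did not overlap, with the lower dose highest. *Slamf6* fell at 50 mg/kg in CD8+ cells (-0.43, SE 0.07, edgeR adjusted p = 4.87e-05) and rose at 5 mg/kg (0.25, SE 0.07, edgeR adjusted p = 0.00857), the latter a call lost without saline pool 1 (0.21) or without the first pool at 5 mg/kg (0.19), and turned to -0.18 as a share of all UMIs.

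*Id3* had its highest levels at the lower dose. CD4+ pools held 93.8, 99.1 and 66.7 CPM of *Id3* under saline, 132, 127 and 118 CPM at 5 mg/kg, and 72.3, 97.1 and 114 CPM at 50 mg/kg. CD8+ pools held 24.0, 27.4 and 31.6 CPM under saline, 59.2, 46.7 and 49.7 CPM at 5 mg/kg, and 31.6, 34.5 and 37.7 CPM at 50 mg/kg. With TMM the pools at 5 mg/kg were above all others in each lineage. As a share of all UMIs this held in CD8+ cells, whereas the CD4+ pools at 5 mg/kg overlapped the saline pools. *Id3* was higher than under saline at the lower dose by a log2 value of 0.53 in CD4+ cells (SE 0.13, edgeR adjusted p = 0.00138) and of 0.89 in CD8+ cells (SE 0.10, edgeR adjusted p = 9.42e-07). At 50 mg/kg the CD4+ value of *Id3* was 0.14 (SE 0.13, edgeR adjusted p = 0.332), reaching 0.30 and passing the test without the first pool at that dose, and the CD8+ value was 0.32 (SE 0.10, edgeR adjusted p = 0.0098), which was 0.24 and no longer called without saline pool 1 and turned to -0.21 as a share of all UMIs.

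*Bach2* was sparse, with 248, 139 and 344 UMIs in the CD4+ cells of the groups in order of dose and 217, 115 and 217 UMIs in the CD8+ cells. CD4+ levels of *Bach2* were 15.5, 13.2 and 13.0 CPM under saline, 12.1, 7.91 and 10.0 CPM at 5 mg/kg, and 17.2, 18.9 and 19.6 CPM at 50 mg/kg, so that the lower dose lay below and the higher dose above the saline pools. The log2 changes of *Bach2* were -0.47 at 5 mg/kg (SE 0.16, edgeR adjusted p = 0.0159) and 0.43 at 50 mg/kg (SE 0.13, edgeR adjusted p = 0.00589), the latter turning to -0.01 as a share of all UMIs. The call at 5 mg/kg was lost without saline pool 1 (-0.40) or the second pool at 5 mg/kg (-0.33). In CD8+ cells *Bach2* was at 7.93, 7.74 and 7.81 CPM under saline, at 5.18, 7.42 and 6.76 CPM at 5 mg/kg and at 8.74, 10.1 and 7.97 CPM at 50 mg/kg, and neither dose passed the test with TMM (edgeR adjusted p = 0.198 and 0.263). At 50 mg/kg CD8+ *Bach2* was called lower as a share of all UMIs (-0.35) and outside the cycling clusters (-0.38).

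*Myb* was lower at 5 mg/kg in both lineages. CD4+ pools held 24.1, 23.6 and 26.4 CPM of *Myb* under saline, 14.2, 17.9 and 17.0 CPM at 5 mg/kg, and 24.8, 18.9 and 20.8 CPM at 50 mg/kg. CD8+ pools held 25.1, 25.7 and 23.0 CPM under saline, 15.5, 15.4 and 15.4 CPM at 5 mg/kg and 15.3, 12.6 and 15.5 CPM at 50 mg/kg. *Myb* fell at 5 mg/kg in CD4+ cells (-0.58, SE 0.12, edgeR adjusted p = 0.000483) and in CD8+ cells (-0.67, SE 0.10, edgeR adjusted p = 1.77e-05), without overlap with saline. At 50 mg/kg *Myb* fell in CD8+ cells (-0.76, SE 0.10, edgeR adjusted p = 1.09e-06), whereas the CD4+ value was -0.21 (SE 0.11, edgeR adjusted p = 0.103) and passed the test without the first pool at that dose (-0.32). Outside the cycling clusters the CD8+ values of *Myb* were -0.20 at 50 mg/kg (edgeR adjusted p = 0.396) and -0.53 at 5 mg/kg (edgeR adjusted p = 0.0695), and neither was called.

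*Satb1* in CD4+ cells was at 186, 185 and 183 CPM under saline, at 180, 158 and 176 CPM at 5 mg/kg and at 213, 209 and 229 CPM at 50 mg/kg. In CD8+ cells *Satb1* was at 84.6, 84.8 and 84.0 CPM under saline, at 104, 81.8 and 89.9 CPM at 5 mg/kg and at 135, 146 and 133 CPM at 50 mg/kg. With TMM the pools of the higher dose stood above all others in both lineages. The rise of *Satb1* at the higher dose was 0.23 on the log2 scale in CD4+ cells (SE 0.05, edgeR adjusted p = 0.000316) and of 0.71 in CD8+ cells (SE 0.06, edgeR adjusted p = 1.12e-08), although as a share of all UMIs the CD4+ change was -0.21. At 5 mg/kg the values of *Satb1* were -0.11 in CD4+ cells (SE 0.05, edgeR adjusted p = 0.0925) and 0.11 in CD8+ cells (SE 0.07, edgeR adjusted p = 0.181), the latter called higher without the second pool at 5 mg/kg (0.18) and called lower as a share of all UMIs (-0.32).

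At 5 mg/kg against saline, 4 of the 7 genes were called in CD4+ cells, against 51.7% of all genes, and 3 of 7 in CD8+ cells, against 60.2%. Between the doses, 7 of 7 were called in CD4+ cells, against 41.2%, and 6 of 7 in CD8+ cells, against 41.0%. From 5 to 50 mg/kg *Tcf7* fell by 1.55 on the log2 scale in CD4+ cells (SE 0.10) and by 1.22 in CD8+ cells (SE 0.14), and *Slamf6* fell by 0.69 (SE 0.06) and by 0.68 (SE 0.08). *Lef1* rose by 0.69 (SE 0.05) in CD4+ cells and by 0.62 (SE 0.06) in CD8+ cells, and *Satb1* by 0.34 (SE 0.05) and 0.60 (SE 0.07). *Id3* fell by 0.39 (SE 0.12) in CD4+ cells and by 0.56 (SE 0.10) in CD8+ cells. The CD4+ call of *Id3* was lost without the first pool at 5 mg/kg (-0.36) or at 50 mg/kg (-0.24). *Bach2* rose by 0.90 (SE 0.15) in CD4+ cells, and its CD8+ change of 0.43 (SE 0.16, edgeR adjusted p = 0.0424) was lost with 7 of the 9 pools left out in turn, at 0.33 to 0.53 over all 9. *Myb* rose by 0.38 (SE 0.13) in CD4+ cells, a call lost without the first pool at 5 mg/kg (0.30) or at 50 mg/kg (0.27), and its CD8+ value was -0.09 (SE 0.11). The comparisons share pools, so their calls are not independent.

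The scale changed the direction of some of these differences. When each gene was expressed as a share of all UMIs of its pool, the median log2 change of all genes at 50 mg/kg was -0.45 in CD4+ cells and -0.53 in CD8+ cells, against -0.01 and 0.00 with TMM. *Tcf7* stayed lower on this scale, at -2.26 in CD4+ and -1.60 in CD8+ cells, and so did *Slamf6*, at -1.10 and -0.96. *Lef1* was at 0.15 in CD4+ cells and at 0.06 in CD8+ cells, where it was no longer called. *Satb1* was at -0.21 and called lower in CD4+ cells and at 0.18 and called higher in CD8+ cells. *Id3* turned to -0.30 and -0.21, and *Bach2* to -0.01 and -0.35, of which the CD4+ *Id3* and CD8+ *Bach2* values were called. At 5 mg/kg 6 of the 7 genes were called on this scale in CD4+ cells and 7 of 7 in CD8+ cells, each lower except *Id3* in CD8+ cells, with *Lef1* at -0.45 in both lineages and medians of all genes of -0.37 and -0.43. The share of all genes called on this scale is not given here, so these counts are not a result about the 7 genes. All 14 values at 50 mg/kg except those of *Tcf7*, *Slamf6* and *Myb* lay above the median shift of their lineage, and these 6 lay below it.

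**Figure D2:**
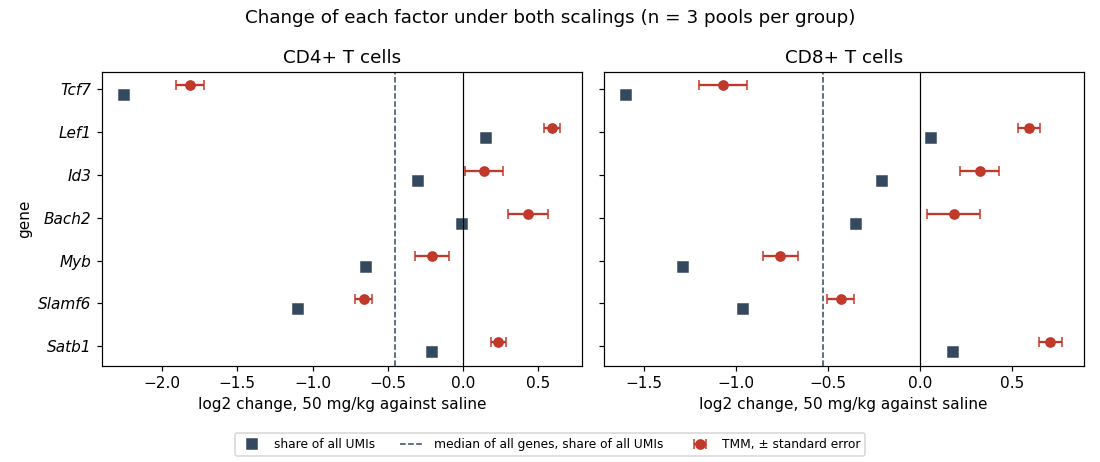
Log2 change at 50 mg/kg against saline (horizontal axes) of the 7 genes, with circles and standard errors for TMM normalization, squares for the share of all UMIs and a dashed line for the median of all genes on the second scale (n = 3 pools per group). *Tcf7* and *Slamf6* were below 0 on both scales in both lineages, whereas *Satb1* in CD4+ cells, *Id3* in both and *Bach2* in both crossed 0.

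CD4+ and CD8+ cells of a pool came from the same mice and the same capture, so the lineages were compared within pools. In saline pools 6 of the 7 genes were called lower in CD8+ than in CD4+ cells, against 18.9% of all genes lower and 40.4% called in either direction. The log2 differences (CD8+ minus CD4+) were -1.68 for *Tcf7* (SE 0.07, edgeR adjusted p = 1.04e-15), -1.54 for *Id3*, -1.10 for *Slamf6*, -1.05 for *Satb1*, -0.74 for *Bach2* and -0.26 for *Lef1*, and each of these 6 genes was lower in CD8+ cells in 9 of 9 pools over all doses. *Myb* was at 0.07 (SE 0.09, edgeR adjusted p = 0.545). Outside the cycling clusters *Lef1* (-0.08) and *Bach2* (0.02) no longer differed past the threshold, and *Myb* was lower in CD8+ cells (-0.74, edgeR adjusted p = 0.000771).

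The change at 50 mg/kg itself differed between the lineages for 3 of the 7 genes, against 19.8% of all genes. *Tcf7* fell less in CD8+ cells, with a difference of the log2 changes of 0.71 (SE 0.12, edgeR adjusted p = 0.000182). *Satb1* rose more in CD8+ cells (0.45, SE 0.07, edgeR adjusted p = 2.62e-05), and *Myb* fell more (-0.58, SE 0.14, edgeR adjusted p = 0.0034). Outside the cycling clusters the difference was 0.22 for *Tcf7* (edgeR adjusted p = 0.326), -0.03 for *Myb* (0.977) and 0.30 for *Satb1* (0.0145), so that of these 3 genes *Satb1* alone kept its call there. With DESeq2 the difference for *Myb* was not called (adjusted p = 0.27). At 5 mg/kg 0 of the 7 differences were called by edgeR, against 3.65% of all genes, although 4 had an unadjusted p under 0.05, and the lowest edgeR adjusted p was 0.055, for *Tcf7* at 0.38. DESeq2 was not run on the differences at 5 mg/kg.

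The 7 genes were spread unevenly over the deposited clusters, 13 of CD4+ and 9 of CD8+ cells, which the authors had built from the same RNA, so that levels between clusters are described without a test. They are given as CPM of all UMIs of a cluster's cells in a pool, as mean ± SD over pools with at least 10 cells. *Tcf7* was highest in CD4+ C4, the follicular helper (TFH) cluster (444 ± 307, n = 9), and in C2, the precursor-like Tcf7hi cluster (388 ± 105, n = 9), and the order of these neighbors differed by dose, with C4 above C2 in 3 of 3 saline pools and below it in 3 of 3 pools at 50 mg/kg. In CD8+ cells the Tcf7hi cluster C5 led with 314 ± 144 CPM, followed by the naive cluster C7 with 206 ± 40.8 CPM, and C5 was above C7 in 7 of 9 pools. The exceptions were at 50 mg/kg, where the pools held 117, 186 and 148 CPM in C5 and 191, 154 and 220 CPM in C7. *Slamf6* followed the same order in CD4+ cells, with 646 ± 268 CPM in C4 and 473 ± 106 CPM in C2, and reached 408 ± 217 CPM in CD8+ C5, above the next cluster in 9 of 9 pools. *Id3* peaked in the same progenitor-like clusters, at 371 ± 84.8 CPM in CD4+ C2 and 245 ± 65.1 CPM in CD8+ C5, each above the next cluster in 9 of 9 pools.

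*Lef1*, *Bach2* and *Satb1* had their highest mean over all doses in the naive clusters, although the order differed by dose for *Bach2* and *Satb1*. *Lef1* was at 423 ± 75.6 CPM in CD4+ C9 and 273 ± 45.8 CPM in CD8+ C7. *Bach2* was at 86.4 ± 72.4 CPM in C9 and 44.1 ± 11.6 CPM in C7, with only 73 and 85 UMIs behind these means, but C5 was above C7 in 3 of 3 saline pools, and at 50 mg/kg C9 was not apart from C2 and C4. *Satb1* was at 342 ± 82.7 CPM in C9 and 331 ± 65.3 CPM in C4, with C9 above C4 in 3 of 3 saline pools but in 5 of all 9, and at 212 ± 40.6 CPM in C7. *Myb* had another pattern, with 64.7 ± 23.4 CPM (n = 8) in the cycling Cd226hi cluster C6 of CD4+ cells and 42.5 ± 14.4 CPM (n = 6) in its CD8+ counterpart C4, although C6 was above the next cluster, C4, in only 3 of 8 pools.

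**Figure D3:**
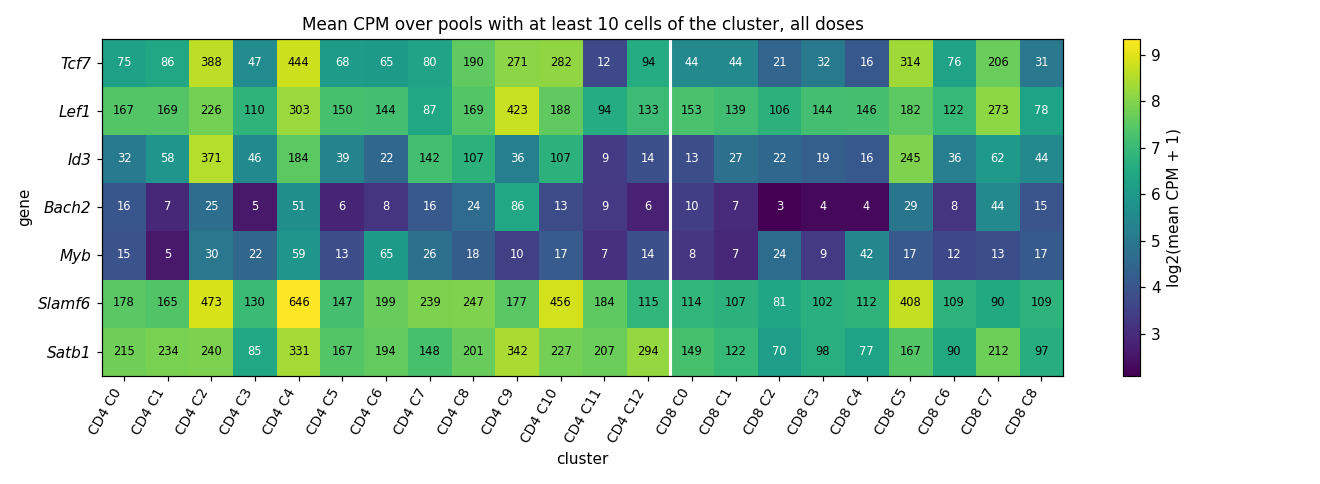
Mean CPM of all UMIs (numbers in the cells, colors on a log2 scale) of the 7 genes (rows) in the 13 CD4+ and 9 CD8+ clusters (columns), over pools of all doses with at least 10 cells of the cluster. *Tcf7*, *Slamf6* and *Id3* were high in CD4+ C2 and C4 and in CD8+ C5, and *Lef1*, *Bach2* and *Satb1* in the naive clusters CD4+ C9 and CD8+ C7.

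Over the 22 clusters, the genes with profiles most like that of *Tcf7* were *Aff3* (Pearson's r = 0.899 over log2(CPM + 10), among 5394 genes), *Nsg2* (0.886) and *Dennd2d* (0.884). For *Slamf6* they were *Sostdc1* (0.923), *Aff3* (0.900) and *Asap1* (0.864), and for *Id3* *Sostdc1* (0.855), *Dennd2d* (0.850) and *Tnfsf8* (0.834). *Lef1* was most like *Kbtbd11* (0.915), *Socs3* (0.885) and *Txk* (0.840), *Bach2* like *Bcl2* (0.892), *Nsg2* (0.881) and *Ppp1r15a* (0.876), and *Satb1* like *Znrf1* (0.895), *Junb* (0.887) and *Il27ra* (0.879). *Myb* was most like *mt-Nd1* (0.907), *Xist* (0.896) and *Zfp91* (0.895). The clusters share libraries and differ in depth, and the values are descriptions.

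The clusters that carried most *Tcf7* were not the same at each dose. In saline CD4+ cells C4 held 39.4% of all *Tcf7* UMIs and C2 held 19.9%, whereas at 5 mg/kg C2 held 52.7% and at 50 mg/kg 38.8%. The TFH cluster C4 made up 18.1%, 6.42% and 1.47% of CD4+ cells in order of dose, and C2 made up 11.1%, 20.5% and 9.98%. In CD8+ cells C5 held 43.4%, 48.8% and 11.6% of *Tcf7* UMIs in order of dose, and the naive cluster C7 held 23.2% at the highest. C5 made up 9.63%, 10.4% and 2.13% of CD8+ cells at the 3 doses.

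To weigh clusters alike in every pool, the CPM of those clusters with at least 10 cells in each of the 9 pools was averaged, with their shares in the saline pools as weights, and tested with limma across all genes. CD4+ C6, C11 and C12 and CD8+ C4 and C8 were left out by this limit, of which C6 held 10.9% of the saline CD4+ cells and C4 held 21.9% of the saline CD8+ cells. This scale is a share of UMIs, and the median change of all genes at 50 mg/kg was -0.40 in CD4+ and -0.44 in CD8+ cells. *Tcf7* was still lower, by a log2 change of -1.94 in CD4+ cells (SE 0.10, limma adjusted p = 1.74e-09) and of -1.44 in CD8+ cells (SE 0.11, limma adjusted p = 6.51e-11), as was *Slamf6*, at -0.93 (SE 0.08) and -1.10 (SE 0.08). CD4+ C4 carried 20.5% of the weight. At 50 mg/kg its 18, 11 and 16 cells held only 5, 2 and 3 *Tcf7* UMIs, few counts for so large a weight. In all, 4 of the 7 genes were called in CD4+ cells, against 48.1% of all genes, and 3 of 7 in CD8+ cells, against 67.2%. The other calls were *Lef1* (0.23, SE 0.08, limma adjusted p = 0.0314) and *Satb1* (-0.22, SE 0.07, limma adjusted p = 0.0195, but 0.22 with TMM factors applied) in CD4+ cells and *Myb* (-0.64, SE 0.18, limma adjusted p = 0.00368) in CD8+ cells. Leaving out single pools moved *Lef1* in CD4+ cells to between 0.17 and 0.27 and ended its call without saline pool 2, saline pool 3 or the second pool at 50 mg/kg. The call of *Satb1* ended without saline pool 2 (-0.19) or the first pool at 50 mg/kg (-0.18).

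Within clusters, *Tcf7* was below its saline level at 50 mg/kg in every cluster tested, and called lower in 9 of 11 CD4+ and 6 of 8 CD8+ clusters. Among all gene and cluster pairs, 15.4% were called lower and 14.8% higher in CD4+ and 22.1% lower and 21.3% higher in CD8+ cells. The 7 genes together gave 32 calls among their 62 CD4+ gene and cluster pairs and 26 among their 48 CD8+ pairs, against 30.2% and 43.4% of all gene and cluster pairs. As shares of all UMIs 33 and 19 pairs were called, and with DESeq2 30 and 14. The shares of all pairs above are from edgeR with TMM and are no background for these counts. *Tcf7* was called lower in 10 of 11 CD4+ clusters on the scale of all UMIs and in 6 of 8 CD8+ clusters. All clusters of a lineage share the same 9 pools, so these calls are not independent.

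**Figure D4:**
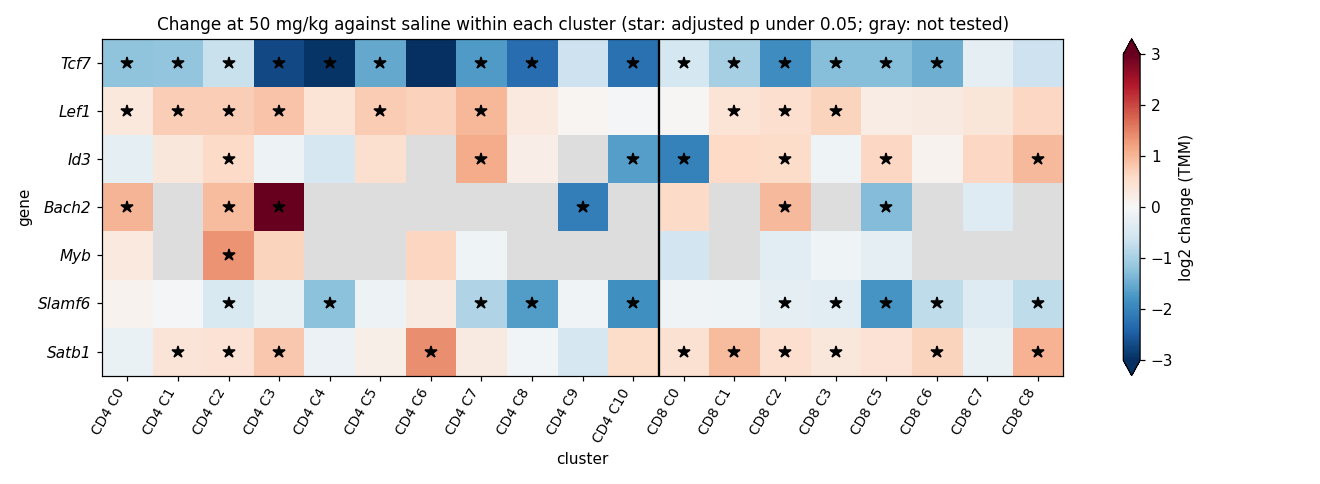
Log2 change with TMM (color) at 50 mg/kg against saline of each gene (rows) within each cluster with at least 2 pools of 10 or more cells per group (columns). Stars mark adjusted p under 0.05 and gray cells were not tested. The row of *Tcf7* was below 0 in every cluster tested, and that of *Slamf6* in every CD8+ cluster. The rise of *Lef1* in CD4+ C0 and of *Satb1* in CD8+ C0 and C3 was not called on the scale of all UMIs, where the values lay below 0.

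In the precursor-like CD4+ C2, TMM-normalized *Tcf7* was at 470, 482 and 387 CPM under saline, at 490, 452 and 431 CPM at 5 mg/kg and at 298, 228 and 305 CPM at 50 mg/kg. The high-dose pools were below the others (log2 change -0.67, SE 0.10, edgeR adjusted p = 2.28e-06), and at 5 mg/kg the value was 0.03 (SE 0.09, edgeR adjusted p = 0.91). In the TFH cluster C4 *Tcf7* stood at 950, 988 and 855 CPM under saline, at 729, 424 and 630 CPM at 5 mg/kg and at 134, 96.6 and 122 CPM at 50 mg/kg, where only 10 UMIs in 45 cells were counted. It fell there at both doses (-0.61, SE 0.14, edgeR adjusted p = 0.00209, and -2.93, SE 0.35, edgeR adjusted p = 2.15e-10). The call of *Tcf7* in C4 at 5 mg/kg was lost without the second pool at that dose (-0.45). In CD8+ C5 *Tcf7* was at 382, 426 and 414 CPM under saline, at 355, 366 and 331 CPM at 5 mg/kg and at 134, 208 and 172 CPM at 50 mg/kg, a fall at the higher dose (-1.27, SE 0.15, edgeR adjusted p = 5.47e-08). *Tcf7* did not pass the test in the naive clusters, at -0.61 in CD4+ C9 (SE 0.25, edgeR adjusted p = 0.0552) and -0.27 in CD8+ C7 (SE 0.22, edgeR adjusted p = 0.68), with unadjusted 95% intervals of -1.09 to -0.13 and -0.70 to 0.16. It also did not pass in CD4+ C6, with 1 UMI at 50 mg/kg, or in CD8+ C8, with 16 UMIs in each group.

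*Slamf6* was called lower at 50 mg/kg within 5 of 11 CD4+ and 5 of 8 CD8+ clusters and called higher in none. Its value lay above 0 in 2 CD4+ clusters, at 0.28 or less. In CD8+ C5 it was at 496, 549 and 457 CPM under saline, at 603, 570 and 538 CPM at 5 mg/kg and at 111, 159 and 160 CPM at 50 mg/kg (log2 change -1.77, SE 0.16, edgeR adjusted p = 6.11e-11). In CD4+ C4 *Slamf6* was at 1111, 945 and 1032 CPM under saline, at 1059, 675 and 1146 CPM at 5 mg/kg and at 484, 435 and 366 CPM at 50 mg/kg (-1.23, SE 0.25, edgeR adjusted p = 8.6e-05). In both clusters the high-dose pools lay below all others. The change was -0.46 (SE 0.09) in CD4+ C2, -1.68 (SE 0.22) in C8, the Fcer1ghi cluster, and -1.84 (SE 0.24) in C10, the Isg15hi cluster.

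*Lef1* rose within 6 CD4+ and 3 CD8+ clusters at 50 mg/kg, and on the scale of all UMIs it was called higher within 5 CD4+ clusters and no CD8+ cluster and lower within CD8+ C0. In CD4+ C2, where *Tcf7* fell, *Lef1* was at 208, 194 and 186 CPM under saline, at 183, 191 and 173 CPM at 5 mg/kg and at 285, 319 and 356 CPM at 50 mg/kg. The high-dose pools were above all others (log2 change 0.74, SE 0.11, edgeR adjusted p = 1.62e-06), and as a share of all UMIs the change was 0.56. *Myb* also rose in C2, from 15.2, 24.7 and 22.5 CPM under saline to 81.5, 51.9 and 41.6 CPM at 50 mg/kg (1.36, SE 0.29, edgeR adjusted p = 0.000383), as did *Id3*, from 362, 345 and 255 CPM to 390, 611 and 448 CPM (0.58, SE 0.12, edgeR adjusted p = 0.000161). These changes of *Lef1*, *Myb* and *Id3* in C2 also passed the test as shares of all UMIs.

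*Satb1* rose within 4 CD4+ and 6 CD8+ clusters at 50 mg/kg, but as a share of all UMIs it was called higher within 2 CD4+ clusters and 1 CD8+ cluster and lower within 2 CD4+ clusters, C0 and C9. The CD8+ cluster was C1, the Cd226lo effector cells, where *Satb1* was at 94.4, 96.0 and 84.9 CPM under saline, at 102, 120 and 97.9 CPM at 5 mg/kg and at 182, 188 and 164 CPM at 50 mg/kg. All 3 groups were apart there (log2 change at 50 mg/kg 0.95, SE 0.13, edgeR adjusted p = 2.94e-07). *Bach2* moved in both directions. In the naive CD4+ C9 it fell at 50 mg/kg (-2.07, SE 0.45, edgeR adjusted p = 0.000195, 42 against 13 UMIs), and in the Cd226hi effector cells of CD4+ C0 it rose, from 14.1, 11.6 and 13.5 CPM to 30.7, 25.8 and 22.7 CPM (1.02, SE 0.31, edgeR adjusted p = 0.00429), although as a share of all UMIs the C0 change was not called (0.56).

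At 5 mg/kg 6 of 62 CD4+ and 5 of 54 CD8+ pairs of the 7 genes passed the test, against 13.0% and 20.4% of all pairs. As shares of all UMIs 14 and 22 passed, and the share of all pairs on that scale is not given here. *Id3* rose in CD8+ C5, from 172, 163 and 210 CPM under saline to 317, 307 and 318 CPM (log2 change 0.78, SE 0.15, edgeR adjusted p = 0.000111), without overlap. *Lef1* fell in the Cd226hi effector cells of both lineages, by -0.53 in CD4+ C0 (SE 0.13) and by -0.60 in CD8+ C0 (SE 0.17), and both calls were lost without the second pool at 5 mg/kg (-0.42 and -0.53), the CD8+ call also without the third (-0.57). *Bach2* fell in CD8+ C5 (-1.50, SE 0.34, edgeR adjusted p = 0.000738, 82 against 26 UMIs).

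Because depth per cell rose with dose, each cell was also thinned to 2000 UMIs, which left out 395, 452 and 80 shallower CD4+ cells and 121, 83 and 8 CD8+ cells of the groups in order of dose. *Tcf7* was then detected in 33.7% ± 3.91, 25% ± 0.99 and 10.9% ± 2.05 of CD4+ cells in order of dose (SD, n = 3), and in 13.4% ± 1.48, 11.6% ± 2.60 and 5.48% ± 0.92 of CD8+ cells. The unthinned shares were 44.8%, 38.9% and 21.9% in CD4+ cells and 21.9%, 23.0% and 13.2% in CD8+ cells. No population that lacks *Tcf7* was sorted. Among the saline clusters large enough for this measure, the lowest thinned share was 3.74%, in the exhausted-like (TEX) CD8+ C8 (107 cells before thinning) at a median of 4377 UMIs per cell. CD4+ C11, with 20 saline cells, was too small to be included. Its mean *Tcf7* over all doses, 12.1 CPM of all UMIs, was the lowest of the CD4+ clusters. *Slamf6* was detected in 41.3% ± 3.05, 35.4% ± 2.51 and 27.1% ± 0.83 of thinned CD4+ cells and in 24.5% ± 2.70, 21.2% ± 0.65 and 14.7% ± 1.12 of thinned CD8+ cells. In contrast, its unthinned shares were 54.9%, 55.4% and 56.3% in CD4+ cells. Thinned shares of *Lef1* were 30.5%, 22.7% and 31.0% in CD4+ cells and 26.0%, 19.9% and 24.2% in CD8+ cells.

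In thinned cells the other factors were seen more often beside *Tcf7* than without it. Under saline *Slamf6* was detected in 59.5% of *Tcf7*+ and 32.1% of other CD4+ cells, and in 44.3% and 21.5% of CD8+ cells. At 50 mg/kg these shares were 36.7% and 25.9% in CD4+ and 18.6% and 14.5% in CD8+ cells. *Id3* was detected in 26.2% of *Tcf7*+ and 10.7% of other CD4+ cells under saline, and in 25.5% and 9.37% at 50 mg/kg. *Lef1*, *Id3*, *Bach2* and *Slamf6* were each more frequent in *Tcf7*+ cells in all 9 pools of both lineages, and *Satb1* in all except 1 CD8+ saline pool, whereas *Myb* went in either direction. These shares are given as descriptions, since both genes were read from the same cells.

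Clonotypes were read from T cell receptor sequences and not from these genes. Expanded and single cells were not matched for their mix of clusters. Cells whose clonotype was seen in at least 2 cells of the lineage in a pool (1701 CD4+ and 2662 CD8+ cells) were compared with cells whose clonotype was seen once (6283 and 6341 cells) within the 9 pools. In CD4+ cells 6 of the 7 genes were called, all lower in expanded clonotypes, against 18.8% of all genes called and 8.83% lower. In CD8+ cells 5 of the 7 were called, 4 of them lower, against 15.1% of all genes called and 7.69% lower. *Tcf7* ranged from 27.9 to 151 CPM (median 107) in expanded and from 55.6 to 258 CPM (median 187) in single CD4+ cells, ranges that overlap, but the expanded cells were lower in 9 of 9 pools (log2 change -0.91, SE 0.06, edgeR adjusted p = 1.84e-11).

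*Id3* was lower in expanded CD4+ clonotypes by -0.90 (SE 0.09), *Bach2* by -1.06 (SE 0.20), *Satb1* by -0.58 (SE 0.05), *Slamf6* by -0.39 (SE 0.05) and *Lef1* by -0.37 (SE 0.05), each in 9 of 9 pools, while *Myb* was at -0.05 (SE 0.13, edgeR adjusted p = 0.863). In CD8+ cells *Tcf7* ranged from 15.4 to 75.6 CPM (median 43.1) in expanded and from 26.8 to 90.5 CPM (median 67.4) in single cells, with the expanded cells lower in 9 of 9 pools (-0.70, SE 0.09, edgeR adjusted p = 4.96e-06). CD8+ *Bach2* was lower by -1.16 (SE 0.18, 9 of 9 pools), *Satb1* by -0.51 (SE 0.07, 8 of 9) and *Id3* by -0.35 (SE 0.09, 7 of 9), and *Myb* was higher (0.35, SE 0.09, 8 of 9). *Lef1* was at -0.10 (SE 0.05) and *Slamf6* at -0.05 (SE 0.07) in CD8+ cells, neither called. When the cycling clusters were left out, *Tcf7* (-0.56), *Id3* (-0.56), *Bach2* (-0.94), *Satb1* and *Lef1* kept their calls in CD4+ cells and *Slamf6* lost it (-0.15), whereas in CD8+ cells *Satb1* (-0.42) was the only call left, with *Tcf7* at -0.22 (edgeR adjusted p = 0.432), *Bach2* at -0.88 (0.0743), *Id3* at 0.03 and *Myb* at 0.25. DESeq2 did not call *Myb* (adjusted p = 0.16).

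**Figure D5:**
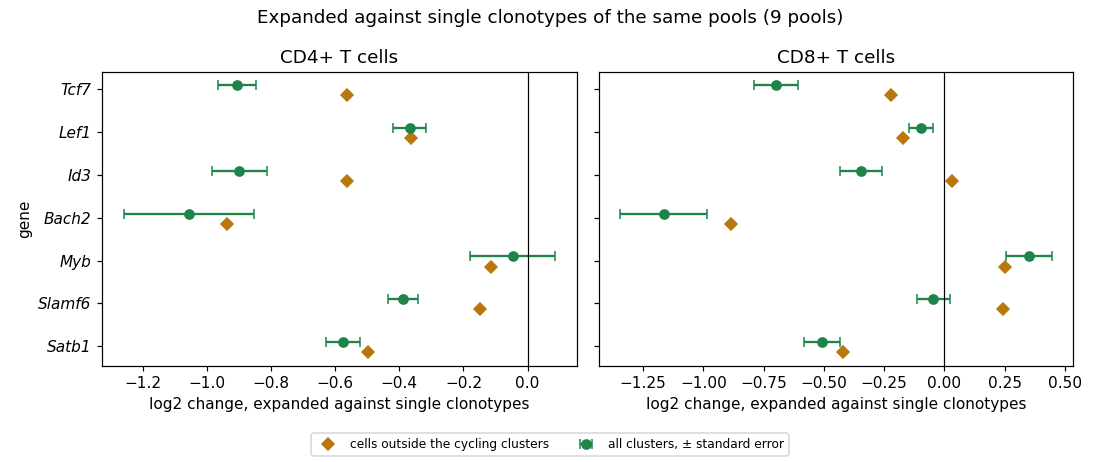
Log2 change between expanded and single clonotypes of the same 9 pools (horizontal axes) for the 7 genes, as circles with standard errors over all clusters and as diamonds for cells outside the cycling clusters. All circles of the CD4+ panel except that of *Myb* lay left of 0 by several standard errors, and in the CD8+ panel the diamonds of *Tcf7*, *Id3* and *Satb1* lay nearer to 0 than the circles.

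TEa cells, which all carry the same receptor, were compared with the other CD4+ cells of 7 pools with at least 10 TEa cells (264 against 8015 cells). The pools left out were pools 2 and 3 at 50 mg/kg, so pool 1 alone stood for that dose. Whether the difference varied with dose was not tested. Of the 7 genes, 0 were called by edgeR and 0 by DESeq2, and 0 had an unadjusted p under 0.05, against 2.03% of all genes called. *Tcf7* ranged from 29.2 to 448 CPM in TEa cells and from 56.4 to 249 CPM in the others (log2 change 0.19, SE 0.11, edgeR adjusted p = 0.632). The 95% interval of the *Tcf7* difference was -0.03 to 0.41.

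Genes related to the 7 by function were counted at 50 mg/kg, where 34.7% of all genes rose and 35.8% fell in CD4+ cells and 37.1% rose and 36.9% fell in CD8+ cells. Among TCF/LEF partners of the Wnt pathway, 9 of 12 tested fell and 1 rose in CD4+ cells, and 8 of 14 fell and 1 rose in CD8+ cells (median log2 change -0.40 and -0.37, against -0.01 and 0.00 for all genes). The partner that rose was *Aes*, a short Groucho-family corepressor (0.89, SE 0.03, and 0.93, SE 0.03), and among those that fell were *Apc*, a scaffold of the β-catenin destruction complex (-1.73, SE 0.08, and -1.72, SE 0.08), and the corepressor *Tle3* (-0.70 and -0.66). Of the E and Id proteins, *Id2* (1.20 and 0.69) and *Tcf3* (0.83 and 0.63) rose and *Tcf12* (-1.15 and -0.83) and *Tcf4* (-1.56 and -1.11) fell in CD4+ and CD8+ cells. As shares of all UMIs, 2 of this list were called higher in CD4+ cells and 0 in CD8+ cells. On that scale the median log2 change of all genes was -0.45 in CD4+ and -0.53 in CD8+ cells, and the share of all genes called is not given here. Of 4 Bach and small Maf factors tested, 2 fell in CD4+ and 1 in CD8+ cells, with *Bach1* at -1.34 and -0.83. In the SLAM family with its adaptors 5 of 8 rose and 2 fell in CD4+ cells, and 3 rose and 4 fell in CD8+ cells. *Slamf1*, a relative of *Slamf6*, fell by 2.14 and by 2.99 on the log2 scale, and *Cd48*, a ligand within the family, rose (0.67 and 0.54). On the scale of all UMIs only 1 SLAM gene was higher in CD4+ cells and none in CD8+ cells, where *Slamf7* was at -0.10 and *Sh2d1a* at -0.33, against 0.43 and 0.20 with TMM. *Mybl1* and *Mybl2*, relatives of *Myb*, fell in CD8+ cells (-1.28 and -0.89) and were not called in CD4+ cells.

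Of 13 memory and naive surface receptors, 4 rose and 8 fell in CD4+ cells, and 6 rose and 4 fell in CD8+ cells. As shares of all UMIs, 2 receptors were called higher and 9 lower in CD4+ cells, and 4 and 8 in CD8+ cells, with medians of all genes of -0.45 and -0.53. *Ly6c2* rose by 3.66 (SE 0.09) and 2.65 (SE 0.10). *Cxcr5*, the follicle homing receptor, fell by 4.48 on the log2 scale in CD4+ cells, and in CD8+ cells from 123 UMIs over the saline pools to 0 at 50 mg/kg, at least 52.4-fold lower as a share of UMIs when a floor of 3 UMIs over the group is used. Of 13 other memory and quiescence transcription factors, 5 rose and 6 fell in CD4+ cells and 6 and 6 in CD8+ cells. As shares of all UMIs, 2 factors were called higher and 9 lower in CD4+ cells, and 2 and 7 in CD8+ cells. With TMM *Klf2*, a quiescence factor, rose (0.94 and 1.05) and *Eomes* rose (1.75 and 0.55). *Tox*, a factor of exhausted and TFH cells, fell (-3.39 and -4.07), as did *Bcl6*, the TFH factor (-2.48 and -1.41). Of 13 effector genes, 9 fell and 2 rose in each lineage. *Klrg1*, a marker of terminal effector cells, rose in both (3.46 and 2.64), and *Gzmb*, encoding granzyme B, rose in CD4+ cells (1.11, SE 0.07). All these lists are small, and with TMM 70.5% of CD4+ and 74.0% of CD8+ genes were called in the same comparison. No such share is given for the counts as shares of all UMIs, so these are not a result about the lists.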

How the data were processed

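Single-cell RNA and T cell receptor sequencing, hashtag counts and cluster labels of sorted donor T cells were analysed as deposited. The authors made the counts (UMIs per gene and cell) with Cell Ranger, whose version and annotation were not given in the sources used here, on the mouse build mm10, and filtered and clustered the cells with Seurat 3.0.0. The authors also deposited hashtag counts, cluster labels and each cell's mitochondrial fraction, and CD8+ cluster names were matched to the study's names by their cell numbers. No column was left out for lack of a sample (0 columns).

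UMIs were summed per pool and lineage. All genes that passed filterByExpr (10568 in CD4+, 10841 in CD8+ cells) were fitted with edgeR 4.0.16 (R 4.3.3, quasi-likelihood test, TMM, Benjamini-Hochberg adjustment, threshold 0.05), with all 3 groups in 1 fit. Clonotype, lineage and TEa comparisons had the pool as a block. A clonotype was an amino acid receptor sequence and was called expanded at 2 or more cells of the lineage in a pool. Cluster-standardized CPM (pseudocount 1, clusters with at least 10 cells in all 9 pools) were tested with limma 3.58.1. Within clusters, pools with at least 10 cells were used. Standard errors were derived from the log2 change and its F statistic.

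The 7 genes and the gene lists were chosen with earlier results of these data known. Beside the 7 genes, those named were at most 3 higher and 3 lower genes of each list per lineage, with the largest called change at 50 mg/kg and pools that did not overlap, and the 3 genes with the most similar cluster profile to each of the 7, among genes with a mean of at least 25 CPM. Some genes that met these rules are not reported here.

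CD4+ and CD8+ cells of a pool came from the same mice, and their deviations from the group means correlated at 0.0228 to 0.378 over 5064 genes in 9 pairs. Tested on simulated counts for the comparison of 50 mg/kg with saline, the fit recovered 199 of 200 genes changed by a log2 value of 1 in CD4+ cells (10469 genes) and 198 of 200 in CD8+ cells (10777 genes), and 43.5% and 53.0% of those changed by 0.5. Only these 200 genes changed in the simulation, equally up and down and with 1 fixed spread between pools. In the data 70.5% and 74.0% of genes were called, so the simulation does not test the choice of scale. Alternatives were DESeq2 1.42.0, scaling by library size, other filters, other cells, blocks and each pool left out.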

Additional observations from a re-analysis of the deposited data

Results flagged for a closer look

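The change at 50 mg/kg differed between the lineages for 3 genes, by a test of the difference of the log2 changes (CD8+ minus CD4+) in the same pools (edgeR). The difference was 0.71 for *Tcf7* (SE 0.12, adjusted p = 0.000182), with changes of -1.82 in CD4+ and -1.07 in CD8+ cells. For *Satb1* it was 0.45 (SE 0.07, adjusted p = 2.62e-05), with changes of 0.23 and 0.71. For *Myb* it was -0.58 (SE 0.14, adjusted p = 0.0034), with changes of -0.21 and -0.76. The share of cycling cells also differed between the groups, and outside the cycling clusters the differences were 0.22 for *Tcf7*, 0.30 for *Satb1* and -0.03 for *Myb*.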

How the results depend on the processing

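Of 3471 recomputed values of single genes, 3231 kept their direction and their side of the threshold, 188 lost a call, 29 gained one and 23 changed direction, and the causes were not tested. Scaling by library size turned *Slamf6* at 5 mg/kg to -0.32 in CD4+ and -0.18 in CD8+ cells, *Tcf7* at 5 mg/kg in CD8+ cells to -0.28 and *Satb1* there to -0.32. At 50 mg/kg it turned *Id3* to -0.30 and -0.21, *Bach2* to -0.0066 and -0.35, *Satb1* in CD4+ cells to -0.21, *Lef1* in CD4+ C0 to -0.14, *Satb1* in CD8+ C0 and C3 to -0.11 and -0.13, and *Slamf7* and *Sh2d1a* in CD8+ cells to -0.10 and -0.33. Outside the cycling clusters, CD8+ *Id3*, *Bach2* and *Sh2d1a* at 50 mg/kg were at -0.18, -0.38 and -0.10, CD8+ *Id3* in expanded clonotypes at 0.031, and the lineage differences of *Bach2* and *Myb* at 0.024 and -0.74. With TMM factors, the standardized values were 0.22 for CD4+ *Satb1*, 0.45 for CD8+ *Lef1* and 0.45 for CD8+ *Id3*.

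Counts of the 7 genes called moved as follows, without the shares of all genes called under each alternative. DESeq2 called 2 in place of 4 in CD4+ cells at 5 mg/kg and 14 in place of 26 CD8+ gene and cluster pairs at 50 mg/kg. Scaling by library size called 7 in place of 3 in CD8+ cells at 5 mg/kg, and within clusters at 5 mg/kg 14 in place of 6 CD4+ and 22 in place of 5 CD8+ pairs. TMM factors gave 5 in place of 3 standardized CD8+ calls, and leaving out cycling clusters gave 1 in place of 5 CD8+ clonotype calls.

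With each pool left out in turn, calls ranged from 2 to 4 (CD4+) and 2 to 4 (CD8+) at 5 mg/kg, from 5 to 7 and 5 to 6 at 50 mg/kg, from 5 to 7 and 5 to 6 between the doses, and from 2 to 4 and 3 to 4 after standardization. Within clusters they ranged from 30 to 33 and 19 to 26 at 50 mg/kg and from 3 to 7 and 3 to 6 at 5 mg/kg. Clonotype calls stayed at 6 and 5, lineage calls at 6 in saline and 3 to 4 for the difference at 50 mg/kg, and TEa calls at 0.

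Without the pool as replicate block, clonotype calls fell to 2 of 7 in CD4+ and 1 of 7 in CD8+ cells, and the 6 and 3 lineage calls were kept in number. Hashtag numbers shared by groups did not pair the pools (correlations of -0.0684 to 0.0174 in CD4+ and -0.0825 to 0.0966 in CD8+ cells), and with that number as replicate block 4, 5 and 7 genes were called in CD4+ cells and 3, 6 and 5 in CD8+ cells at 5 mg/kg, at 50 mg/kg and between the doses. Leaving out cells with 2 strong hashtags, chosen after seeing the data, gave 3, 5 and 6 and 3, 6 and 5. *Bach2* and *Myb* were the sparsest of the 7 genes within clusters, with 4 or 5 clusters tested per lineage.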
